A study of Rattus norvegicus with 60 samples.

Results

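The striatum and the nucleus accumbens of the same rats were compared on 22 of the 60 arrays of the series, 12 from striatum and 10 from accumbens. The arrays were chosen by their labelled region. Both lines of the study entered 1 fit, and 10 rats gave both regions, so that each of these rats served as its own control. The adult rats belonged to NP, a line selected for not preferring alcohol, or to the congenic line NP.P, and the series title gives candidate genes for alcohol preference as the question. From general knowledge of the study rather than its labels, NP.P rats carry a segment of chromosome 4 from the alcohol-preferring P line on the NP background. Each rat was a separate sample, RNA of each was labelled and hybridized on its own, and the labels name no drug, alcohol exposure or sex. The groups were striatum of NP rats (n = 6), accumbens of NP rats (n = 5), striatum of congenic rats (n = 6) and accumbens of congenic rats (n = 5). The accumbens arrays of NP rat 8 and congenic rat 9 were left out, because their profiles stood apart from the other accumbens arrays. The profile of NP rat 8 correlated at -0.04 with that of accumbens and at 0.65 with that of hippocampus. The array labelled hippocampus of the same rat correlated at -0.21 with hippocampus and best, at 0.39, with accumbens. On the array of congenic rat 9 the control for RNA integrity, the 3′ minus 5′ log2 difference of GAPDH, was 4.56, against at most 0.26 on the arrays used. The labels say striatum and give no border of the dissection, so the dorsal position is the reading of a general label.

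The striatum receives glutamate input from cortex and thalamus and dopamine input from the midbrain, and nearly all of its neurons are GABAergic medium spiny neurons. Those of the direct pathway carry the dopamine receptor Drd1 and the peptides substance P and dynorphin, and those of the indirect pathway carry Drd2 and enkephalin. The dorsal part is known for movement and habit, while the accumbens, its ventral part, is tied to limbic input, motivation and reward, and borders on the septum, the basal forebrain and the surface of the brain.

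Values are log2 array signals of probe sets, the array's units for a transcript. Calls rest on an adjusted p under 0.05 (limma with the animal as a block, Benjamini-Hochberg), and each difference is striatum minus accumbens with its SE. Of 18625 probe sets with signal, 11328 were called (60.8%), 5311 higher in striatum (28.5%) and 6017 higher in accumbens (32.3%). By gene, with the brightest probe set of each, 6515 of 10386 were called (62.7%), of which 2907 were higher in striatum (28%) and 3608 higher in accumbens (34.7%). Most of these differences were small. The median size of a called gene's difference was 0.25 log2 units, and 3496 called genes differed by less than 1.2-fold. Tested against a difference of 1.2-fold, 2566 probe sets were called, 1655 higher in striatum and 911 in accumbens. A difference of 2-fold or more was found for 77 genes higher in striatum (0.741%) and 66 higher in accumbens (0.635%). For 2272 genes (21.9%) the values of the 12 striatum arrays and the 10 accumbens arrays did not overlap. A count of calls in a group of genes is therefore read against these shares. Their balance depended on array centring. With arrays centred on their medians, 5679 probe sets were higher in striatum and 5654 in accumbens. Of 56 called genes named here with further probe sets tested, 43 had all of them called the same way. At least 1 was not called for 12, Cacnb1, Oprk1, Pdyn, Plxdc1, Gabrd, Mapt, Sox4 and Magi1 among them, and 1, Abhd6, had one called the opposite way.

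Array controls differed between the regions as well. The spiked hybridization control cre lay between 14.51 and 14.82 in accumbens and between 14.85 and 15.07 in striatum, higher in striatum in 10 of 10 rats. The GAPDH 3′ minus 5′ difference ran from -0.09 to -0.01 in accumbens and from 0.05 to 0.26 in striatum, higher in striatum in 10 of 10 rats. That of hexokinase went the other way, with medians of 1.64 in accumbens and 1.32 in striatum, and was higher in striatum in 1 of 10 rats. That of actin was higher in striatum in 8 of 10 rats, by 0.06 on average. Array medians were lower in striatum by 0.01 on average, in 10 of 10 rats. The part of these controls in the results was not tested. In bulk tissue, fewer cells of a type and less RNA per cell cannot be told apart. No 2 arrays were identical, and arrays give no read depth, so the number of rats limits the precision.

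The largest difference of all named genes was that of Cartpt, which encodes the neuropeptide CART and was 6.31-fold higher in accumbens. Its log2 value lay between 11.83 and 12.27 in accumbens (median 12.01) and between 9.08 and 9.71 in striatum (median 9.31). Every accumbens array stood more than 2 log2 units above every striatum array, and the difference was -2.66 ± 0.06 (adjusted p = 2.27e-13). In amygdala, frontal cortex and hippocampus the medians of Cartpt were 9.23, 8.97 and 8.52, each under the median of striatum. Nts, the gene of neurotensin, a peptide that modulates dopamine signalling, ranged from 10.18 to 10.92 in accumbens (median 10.51) and from 8.14 to 9.14 in striatum (median 8.87). The regions did not overlap, and the difference was -1.84 ± 0.11 (3.57-fold, adjusted p = 1.11e-09). Hippocampus held a similar median of Nts to accumbens, 10.65, and frontal cortex a far lower one, 6.14. Nmbr, the receptor of the peptide neuromedin B, had accumbens values of 8.89 to 10.00 (median 9.58) and striatum values of 7.47 to 7.92 (median 7.67). Again no array overlapped (-1.82 ± 0.09, adjusted p = 2.19e-10).

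**Figure D1:**
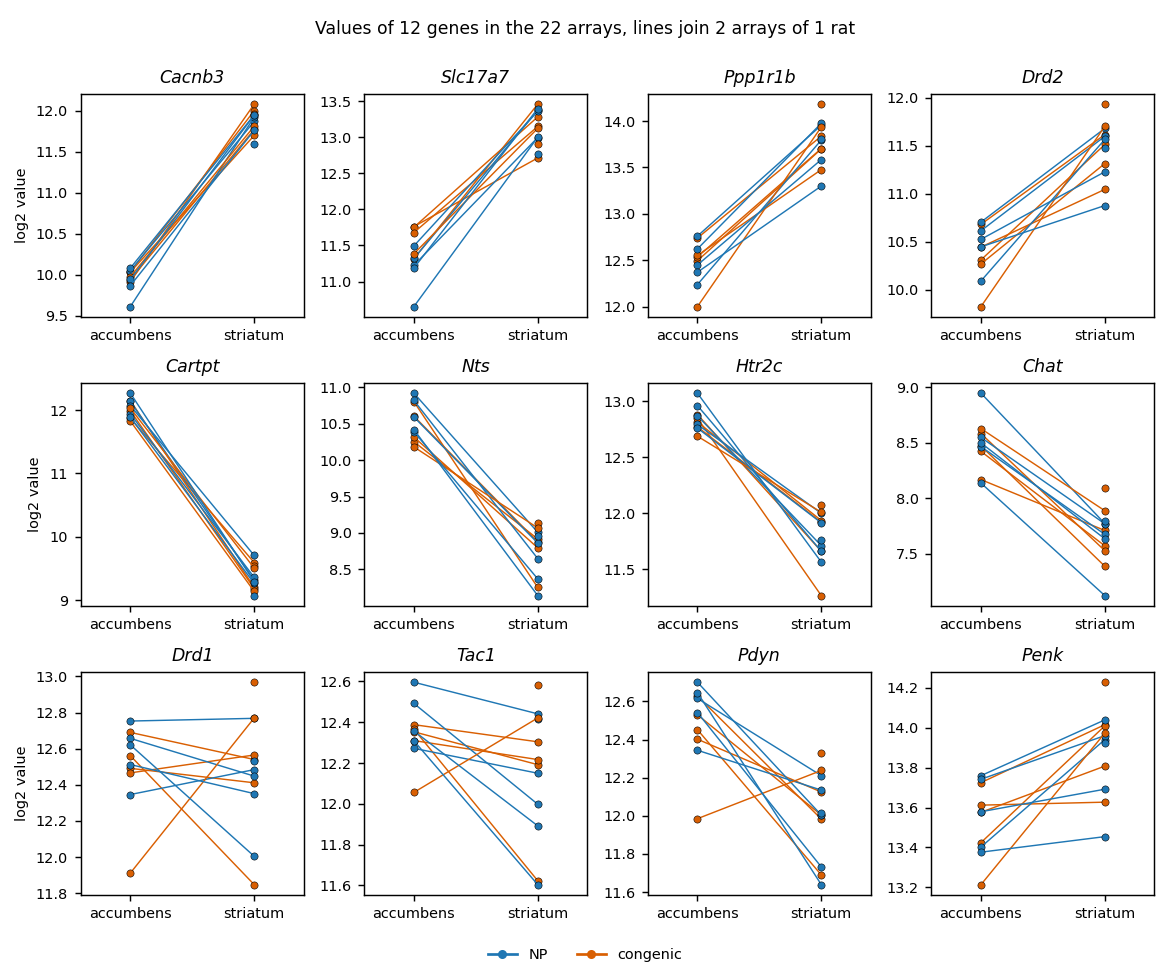
Log2 values (vertical axis) of 12 genes in accumbens and striatum, 1 panel per gene with its own scale. Each point is an array, coloured by line, and each line joins the arrays of 1 rat, while striatum points of rats 8 and 9 stand alone. Cacnb3 and Slc17a7 are higher and Cartpt and Nts lower in striatum in 10 of 10 rats, as the choice of the largest differences required, and Drd1 is higher in striatum in 4 of 10.

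The stretches before the transcription start of the 2 neuropeptide genes highest in accumbens are shown with those of 2 genes among the highest in striatum, Cacnb3 and Slc17a7, which are described next. Each has 250 bases, 5′ to 3′ on the gene's strand, from RefSeq on the rat GRCr8 assembly. Capitals mark matches on either strand to the cyclic AMP response element TGACGTCA, its short form TGACG, the AP-1 element TGANTCA, the GC box GGGCGG or the TATA box TATAAA. The short form also matches inside each full element.
Cartpt (chr2:32991236-32991485, minus strand): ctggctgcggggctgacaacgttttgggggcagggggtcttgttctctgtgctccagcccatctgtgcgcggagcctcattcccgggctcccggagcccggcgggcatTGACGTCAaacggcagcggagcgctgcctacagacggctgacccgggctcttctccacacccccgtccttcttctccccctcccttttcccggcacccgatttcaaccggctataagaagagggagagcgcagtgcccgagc
Nts (chr7:39460889-39461138, minus strand): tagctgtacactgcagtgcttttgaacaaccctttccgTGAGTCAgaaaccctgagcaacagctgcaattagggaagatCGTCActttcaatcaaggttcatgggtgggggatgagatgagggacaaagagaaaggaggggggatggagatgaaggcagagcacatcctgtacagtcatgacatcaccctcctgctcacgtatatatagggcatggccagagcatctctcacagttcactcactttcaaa
Cacnb3 (chr7:131666301-131666550, plus strand): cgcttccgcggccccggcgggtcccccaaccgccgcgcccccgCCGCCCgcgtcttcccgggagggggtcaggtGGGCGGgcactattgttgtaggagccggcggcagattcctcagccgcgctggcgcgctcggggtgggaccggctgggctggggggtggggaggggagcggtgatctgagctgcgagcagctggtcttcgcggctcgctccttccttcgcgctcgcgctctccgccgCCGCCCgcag
Slc17a7 (chr1:104785955-104786204, plus strand): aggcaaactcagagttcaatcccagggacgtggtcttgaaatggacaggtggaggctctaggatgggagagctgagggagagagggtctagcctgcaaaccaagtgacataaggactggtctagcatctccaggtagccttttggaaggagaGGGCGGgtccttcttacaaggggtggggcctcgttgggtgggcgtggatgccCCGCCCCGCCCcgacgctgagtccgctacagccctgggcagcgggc

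The window of Cartpt holds 1 full cyclic AMP response element, which begins 142 bases before the start. Such an element occurs in 1.7% of the 27457 RefSeq promoters of the same length, and in 3.05% of the 8644 that belong to tested genes. The window of Nts holds an AP-1 element 212 bases before the start (6.36% of all promoters, 4.1% of those of tested genes). It also holds a short cyclic AMP response element 171 bases before the start (19% of all promoters, 28.6% of those of tested genes). Those of Cacnb3 and Slc17a7 hold 3 GC boxes each, and the last pair in Slc17a7 shares a base. At least 1 GC box was found in 32.4% of all promoters and 59.9% of those of tested genes. No TATAAA was found in these 4 windows (13.1% of all promoters, 6.26% of those of tested genes). These are matches of letters, and no binding was measured.

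Among genes higher in striatum, Stac2, an adaptor protein of voltage-gated calcium channels, differed most (2.11 ± 0.06, 4.31-fold, adjusted p = 1.18e-12). It ranged from 8.80 to 9.68 in striatum and from 7.04 to 7.43 in accumbens, where all values were under the signal limit of 7.74 used here. That limit is a percentile of the signals, and no background was measured. The values of Kcnj10, Pgr, Cacng4 and Chrm1 in accumbens, and of Trhr, Lum and Isl1 in striatum, also lay wholly under it. These 8 genes passed the filter only through the region where they are higher, so their folds and p-values are given as a description. The same holds for other named genes whose mean, though not every array, lay under the limit in the lower region. Nmbr, Chat, Abi3bp, Fezf2 and Pmch are among them. Cacnb3, an auxiliary subunit of those channels, ran from 11.60 to 12.08 in striatum (median 11.90) and from 9.61 to 10.08 in accumbens (median 9.96). The 2 ranges lay more than 1 log2 unit apart (1.94 ± 0.05, 3.83-fold, adjusted p = 6.96e-13). Medians of Cacnb3 in amygdala, frontal cortex and hippocampus were 10.26, 10.44 and 9.67. Slc17a7 encodes the vesicular glutamate transporter VGLUT1 of cortical and hippocampal excitatory neurons. Its striatum values were 12.71 to 13.46 (median 13.14) and its accumbens values 10.65 to 11.76 (median 11.35). The difference was 1.81 ± 0.10 (3.50-fold, adjusted p = 7.32e-10), with no overlap, and the second probe set of the gene was called the same way. The striatum median of Slc17a7 was also above those of frontal cortex (12.21) and hippocampus (12.16), the regions known for this transporter.

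Differences of similar size were those of Fezf2, a transcription factor of deep-layer cortical neurons (1.85 ± 0.08), and Ephb6, a receptor for ephrins without kinase activity (1.77 ± 0.07). Fezf2 lay between 9.02 and 9.64 in striatum and between 6.95 and 7.97 in accumbens, while its frontal cortex median was 10.09. Nr4a2, an orphan nuclear receptor found in deep cortex, claustrum and dopamine neurons, was higher by 1.51 ± 0.09. Nrgn, neurogranin, which binds calmodulin in dendritic spines, was higher by 1.47 ± 0.05. Its striatum values were tightly grouped, from 13.89 to 14.04, and its accumbens values ran from 12.12 to 12.70. Lrrc10b (1.45 ± 0.09), C1ql3, a secreted synaptic protein of the C1q family (1.37 ± 0.12), Pfkl, the liver-type phosphofructokinase of glycolysis (1.37 ± 0.06), Stx1a, a syntaxin of vesicle fusion (1.35 ± 0.08), and Mapk4 (1.33 ± 0.06) completed the 12 largest, which were taken from genes with 1 sign in all 10 pairs.

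In accumbens, 5 of the 12 largest differences belonged to genes of connective tissue matrix or its collagens. Ogn, the matrix proteoglycan osteoglycin, was 5.76-fold higher in accumbens (-2.53 ± 0.18, adjusted p = 7.17e-09), with values of 11.92 to 12.43 there and 8.12 to 10.30 in striatum. Lum (-2.13 ± 0.08), Abi3bp (-1.97 ± 0.11), Dcn (-1.84 ± 0.08) and Col1a2 (-1.61 ± 0.15) followed, and none overlapped between regions. Gjb2, a connexin of the meninges, differed by -1.57 ± 0.09. Cdhr1, a cadherin-related protein of photoreceptors and olfactory bulb, spread widely in accumbens, from 9.62 to 11.97, and differed by -1.67 ± 0.18. Ap1s2, a subunit of the clathrin adaptor AP-1, ran from 12.45 to 12.76 in accumbens and from 10.70 to 11.23 in striatum (-1.61 ± 0.05, adjusted p = 6.96e-13). Slc5a7, the choline transporter of cholinergic neurons, completed the 12 (-1.60 ± 0.10).

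Markers of medium spiny neurons were mostly higher in striatum. Of 19 tested, 12 were higher in striatum and 4 in accumbens, with a median difference of 0.54, where the median over all genes was -0.03. Ppp1r1b, DARPP-32, the phosphatase inhibitor through which dopamine acts on these neurons, ranged from 13.30 to 14.18 in striatum (median 13.80) and from 12.00 to 12.76 in accumbens (median 12.52). The regions did not overlap and the gene was 2.38-fold higher in striatum (1.25 ± 0.08, adjusted p = 1.90e-09). Rasd2, a small GTPase enriched in striatum (1.18 ± 0.08), Scn4b, a sodium channel subunit (1.14 ± 0.08), and Pde10a, a phosphodiesterase that breaks down cyclic AMP and cyclic GMP (1.12 ± 0.10), also differed by more than 2-fold. Their medians in amygdala, frontal cortex and hippocampus were all lower than in accumbens. Smaller differences in the same direction were those of Adcy5, the striatal adenylyl cyclase (0.72 ± 0.09), Rgs9, which shortens dopamine receptor signalling (0.56 ± 0.08), and Pde1b (0.51 ± 0.08). Against the rest of the list, the receptor Gpr149 was higher in accumbens by 2.04-fold (-1.03 ± 0.10), as was Foxp2 (-0.68 ± 0.08, adjusted p = 1.40e-06). With the 2 left-out accumbens arrays put back, the difference of Foxp2 was -0.33 and not called (adjusted p = 0.444).

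Of 14 genes of dopamine signalling, several of them also markers of medium spiny neurons, 7 were higher in striatum and 2 in accumbens, the latter including Ddc, the decarboxylase that makes dopamine (-0.45 ± 0.04). Drd2 ranged from 10.88 to 11.93 in striatum (median 11.54) and from 9.83 to 10.71 in accumbens (median 10.45), with no overlap. It was 2.03-fold higher in striatum (1.02 ± 0.10, adjusted p = 5.06e-07). Drd1 had nearly equal medians, 12.51 in striatum and 12.54 in accumbens, and was higher in striatum in 4 of 10 rats. Its difference of -0.08 ± 0.11 was not called (adjusted p = 0.528). It was 0.43 when the 2 left-out arrays were put back, again not called (adjusted p = 0.353). Drd3, the receptor known for its ventral distribution, had medians of 6.27 in striatum and 6.25 in accumbens, under the signal limit of 7.74, and was not tested.

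Markers of the indirect pathway were higher in striatum, while those of the direct pathway had no such common direction. For the indirect pathway all 5 tested were higher in striatum (median difference 0.32). Besides Drd2 they were Adora2a, the adenosine receptor that opposes Drd2 (0.82 ± 0.13), Gpr6 (0.32 ± 0.10), Penk, the enkephalin precursor (0.31 ± 0.06, adjusted p = 6.05e-04), and Plxdc1 (0.18 ± 0.05). Penk ran from 13.45 to 14.23 in striatum and from 13.21 to 13.76 in accumbens, so that the regions overlapped although 10 of 10 rats were higher in striatum. With the 2 left-out arrays put back, 3 of the 5 were called, and Penk was not (0.64, adjusted p = 0.0659). For the direct pathway 5 of 9 were higher in accumbens and 1 in striatum, Chrm4, a muscarinic receptor that damps cyclic AMP (0.64 ± 0.06). Isl1, a transcription factor of direct pathway neurons, was higher in accumbens by 1.66-fold (-0.73 ± 0.08), and Pdyn, the dynorphin precursor, by 1.42-fold (-0.51 ± 0.09, adjusted p = 1.67e-04). Pdyn overlapped between regions, from 11.98 to 12.70 in accumbens and from 11.64 to 12.33 in striatum, and 1 of 10 rats was higher in striatum. Tac1, the precursor of substance P, differed by -0.27 ± 0.09 (adjusted p = 0.0134), with values of 12.06 to 12.60 in accumbens and 11.60 to 12.58 in striatum. Without the animal as a block, Tac1 lay at -0.20 (adjusted p = 0.0840) and Slc35d3 at -0.16 (adjusted p = 0.282), neither called, which left 3 of the 9 higher in accumbens and 2 in striatum. Putting back the 2 left-out arrays gave 3 and 1, a share in accumbens near the 34.7% of all genes. Slc35d3, a sugar transporter of the direct pathway (-0.24 ± 0.10, adjusted p = 0.0468), was not called either when rat 1, 4, 6, 7, 11 or 12 was left out (adjusted p of 0.0584 to 0.116). The sign of Tac1 turned with the 2 left-out arrays (0.32, adjusted p = 0.509).

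**Figure D2:**
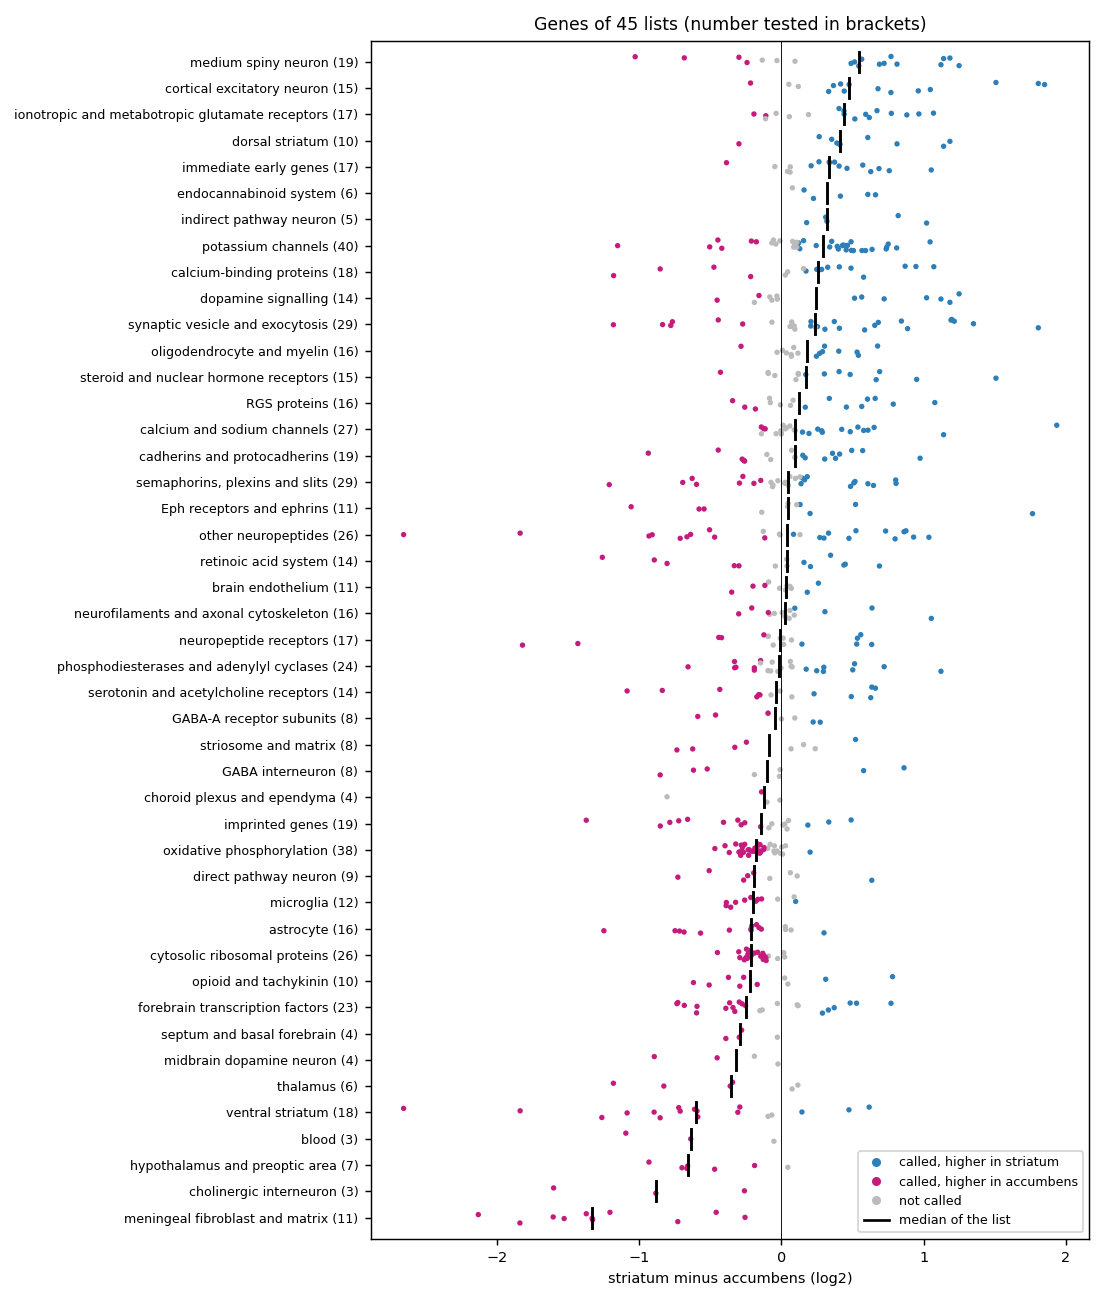
Difference of each tested gene (points, striatum minus accumbens, log2, horizontal axis) in 45 gene lists (vertical axis, number of genes tested in brackets), ordered by the median of the list (black bar). Blue and pink points are called genes and grey points are not called. Medium spiny neuron markers have the highest median, 0.54, and meningeal and matrix markers the lowest, -1.33.

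Lists of genes known from other work to mark the dorsal or ventral striatum followed the labels in most members. The lists were chosen with earlier results of these data known, so the counts are a description and no check of the labels. Of the tested genes, 6 of 10 dorsal and 13 of 18 ventral ones also stand in other lists. For the dorsal part 9 of 10 were higher in striatum (median 0.41), among them Actn2, which links actin to receptors in spines (0.81 ± 0.09), Cnr1, the cannabinoid receptor CB1 (0.61 ± 0.06), and Gpr155 (0.41 ± 0.05). Cnr1 lay between 12.71 and 13.08 in striatum and between 12.06 and 12.51 in accumbens, with no overlap (adjusted p = 1.90e-07). The exception, named after its value was seen, was Rarb, a retinoic acid receptor, at -0.30. For the ventral part 13 of 18 were higher in accumbens and 3 in striatum (median -0.60). Beside Cartpt and Nts, they included Col11a1, a fibrillar collagen chain (-1.26 ± 0.05), Htr2c, a serotonin receptor (-1.09 ± 0.08), and Zcchc12, a zinc finger co-activator (-0.90 ± 0.05). Htr2c ran from 12.69 to 13.07 in accumbens (median 12.83) and from 11.26 to 12.08 in striatum (median 11.84), with no overlap (2.12-fold, adjusted p = 1.43e-08). Crym, a thyroid hormone binding protein, overlapped, with medians of 12.38 in accumbens and 12.31 in striatum (-0.09 ± 0.06, adjusted p = 0.196). The 3 higher in striatum, named after their values were seen, were Tmem163 (0.62), the cholecystokinin gene Cck (0.47) and the receptor Npy1r (0.14).

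Neuropeptides and their receptors split between the regions, as did all genes tested, with 28% higher in striatum and 34.7% in accumbens. Among opioid and tachykinin genes, 6 of 10 were higher in accumbens and 2 in striatum. Oprk1, the kappa opioid receptor that dynorphin activates, differed by -0.29 ± 0.08 (adjusted p = 0.00342), with values of 8.81 to 9.60 in accumbens and 8.73 to 9.37 in striatum. With the 2 left-out arrays it was not called (-0.09, adjusted p = 0.675). Tac3, the neurokinin B precursor, was higher in accumbens (-0.62 ± 0.06), and its receptor Tacr3 was higher in striatum (0.78 ± 0.05). Pnoc, the nociceptin precursor, was higher in accumbens (-0.37 ± 0.06). Of 26 other neuropeptide genes, 12 were higher in striatum and 10 in accumbens. Cbln2, a secreted synapse organizer (1.04 ± 0.05), Vgf, a granule protein cut into several peptides (0.93 ± 0.04), and Vip, vasoactive intestinal peptide (0.86 ± 0.07), were higher in striatum. Npy, neuropeptide Y, had medians of 12.23 and 12.21 and was not called (-0.01 ± 0.04, adjusted p = 0.805). Of 17 peptide receptors, 5 were higher on each side. Trhr, the receptor of thyrotropin-releasing hormone, was 2.70-fold higher in accumbens (-1.43 ± 0.05, adjusted p = 1.04e-11), with values of 8.57 to 8.89 there and 6.75 to 7.52 in striatum, all under the signal limit. The cholecystokinin receptor Cckbr (0.63 ± 0.05), the somatostatin receptor Sstr2 (0.56 ± 0.06) and the VIP receptor Vipr1 (0.53 ± 0.04) were higher in striatum.

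All 3 tested markers of cholinergic interneurons, the large acetylcholine neurons of the striatum, were higher in accumbens. Slc5a7 ranged from 9.71 to 10.46 in accumbens (median 10.24) and from 8.09 to 9.00 in striatum (median 8.73). Chat, the enzyme that makes acetylcholine, ran from 8.14 to 8.95 in accumbens (median 8.49) and from 7.12 to 8.09 in striatum (median 7.69). Neither gene overlapped between the regions, and Chat was 1.84-fold higher in accumbens (-0.88 ± 0.06, adjusted p = 3.35e-09). The third, the vesicular transporter Slc18a3, differed by -0.26 ± 0.05, and with the 2 left-out arrays it was not called (-0.16, adjusted p = 0.0882). Markers of basal forebrain, which also holds cholinergic neurons, moved with them. Of 4 tested, 3 were higher in accumbens, and the mean of the list lay between 8.30 and 8.62 there and between 8.05 and 8.42 in striatum. Nkx2-1, a transcription factor of that origin, ran from 7.81 to 8.27 in accumbens and from 7.43 to 7.79 in striatum (-0.30 ± 0.05). The part of such cells in the cholinergic values was not tested. Markers of GABA interneurons did not share a direction, with 2 of 8 higher in striatum and 3 in accumbens. Pvalb, parvalbumin of fast-spiking cells, was higher in striatum (0.58 ± 0.06), while Calb2, calretinin, was higher in accumbens (-0.85 ± 0.08), as was Sox6 (-0.52 ± 0.07).

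Among receptors for glutamate, 11 of 17 were higher in striatum and 2 in accumbens (median 0.44). They included the NMDA receptor subunits Grin2a (1.07 ± 0.14) and Grin1 (0.88 ± 0.04), the AMPA receptor subunit Gria1 (0.67 ± 0.06) and the metabotropic receptors Grm2 (0.97 ± 0.10) and Grm5 (0.77 ± 0.13). Grin1 lay between 12.34 and 12.48 in striatum and between 11.42 and 11.62 in accumbens, with no overlap (adjusted p = 1.63e-11). The transporters of excitatory terminals differed in opposite directions. Slc17a6, VGLUT2, found in thalamic and hypothalamic neurons, was 2.27-fold higher in accumbens (-1.18 ± 0.08), against the 3.50-fold higher Slc17a7 in striatum. GABA-A receptor subunits were divided, with 2 of 8 higher in striatum, Gabrd (0.27 ± 0.03) and Gabra5 (0.22 ± 0.05), and 3 in accumbens. Of the latter, Gabrg1 differed by -0.59 ± 0.05 and Gabrb1 by -0.46 ± 0.05. Gabrb2, at -0.09 ± 0.04 (adjusted p = 0.0468), was not called when rat 2, 4, 5, 6, 7, 10, 11 or 12 was left out (adjusted p of 0.0594 to 0.112). With the 2 left-out arrays, Gabrg1 (adjusted p = 0.152) and Gabra5 (adjusted p = 0.674) were not called either. Serotonin and acetylcholine receptors were split 5 to 6 of 14, with the serotonin receptor Htr4 higher in accumbens (-0.84 ± 0.09) and the muscarinic receptors Chrm3 (0.66 ± 0.06) and Chrm1 (0.63 ± 0.05) higher in striatum.

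Genes of excitability and release were mostly higher in striatum. Of 40 potassium channel genes, 25 were higher in striatum and 6 in accumbens (median 0.29), and of 27 calcium and sodium channel genes 13 and 3. The inward rectifiers of glia differed in opposite directions. Kcnj10 was higher in striatum (1.05 ± 0.06, values of 8.33 to 8.80 against 7.33 to 7.73), and Kcnj16 was higher in accumbens (-1.15 ± 0.05, 9.11 to 10.00 against 8.15 to 8.57). Kcnab2 (0.81 ± 0.05), Kcnv1 (0.75 ± 0.07) and Kcnmb4 (0.74 ± 0.04), subunits that modify potassium channels, were higher in striatum, as were the calcium channel genes Cacnb1 (0.65 ± 0.05), Cacng4 (0.61 ± 0.05) and Cacna1g (0.58 ± 0.04). In the synaptic vesicle list 16 of 29 were higher in striatum and 6 in accumbens (median 0.24). Syn1, synapsin, which tethers vesicles, ran from 12.98 to 13.31 in striatum and from 11.71 to 12.15 in accumbens (1.22 ± 0.06). Cplx2, a complexin that clamps fusion, and Syt11, a synaptotagmin, were each 2.29-fold higher in striatum. For Cplx2 the accumbens values were spread from 7.94 to 9.71.

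Calcium-binding proteins were higher in striatum in 11 of 18 and in accumbens in 4. Cabp1 (1.07 ± 0.06), Necab3 (0.95 ± 0.05) and Hpca, hippocalcin (0.87 ± 0.06), led the first group, and S100a6, found in astrocytes and fibroblasts, led the second (-1.18 ± 0.05). In the endocannabinoid system 5 of 6 were higher in striatum and none in accumbens. Beside Cnr1 these were Mgll, which breaks down 2-arachidonoylglycerol (0.66 ± 0.04), Daglb, which makes it (0.41 ± 0.04), Abhd6 (0.23 ± 0.04) and Cnrip1 (0.16 ± 0.05). After quantile normalization Cnrip1 was not called (0.10, adjusted p = 0.0786), and the second probe set of Abhd6 was called higher in accumbens. Regulators of G protein signalling were higher in striatum in 8 of 16, with Rgs7bp (1.08 ± 0.08), Rgs12 (0.79 ± 0.06) and Rgs4 (0.66 ± 0.04). In accumbens 3 were higher, among them Rgs16 (-0.34 ± 0.04). Phosphodiesterases and cyclases were split 8 to 7 of 24, beside 28% and 34.7% of all genes, and Pde8b was higher in accumbens (-0.66 ± 0.05).

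Immediate early genes, which neurons switch on within minutes of activity, were higher in striatum in 12 of 17 and in accumbens in 1 (median 0.34). Arc, which acts at active synapses, lay between 9.78 and 11.12 in striatum (median 10.89) and between 9.36 and 10.03 in accumbens (median 9.88). The regions overlapped at 1 end, and Arc was 2.08-fold higher in striatum in 10 of 10 rats (1.05 ± 0.06, adjusted p = 3.09e-10). Homer1 (0.76 ± 0.05), the transcription factors Egr2 (0.69 ± 0.07) and Egr1 (0.63 ± 0.04), and Fosb (0.57 ± 0.05) were higher as well. The 1 gene higher in accumbens, named after its value was seen, was Fos (-0.39).

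Transcription factors of the forebrain were higher in accumbens in 12 of 23 and in striatum in 6 (median -0.25). Foxp1, a regulator of medium spiny neuron identity, was higher in striatum (0.77 ± 0.07), by all 4 of its probe sets, while Tshz1 (-0.74 ± 0.05) and Sox4 (-0.60 ± 0.07) were higher in accumbens. The other 3 probe sets of Sox4 were not called (-0.01, -0.11 and 0.04, adjusted p = 0.898, 0.256 and 0.592). In the retinoic acid system, the binding protein Crabp2 (-1.26 ± 0.07) and the synthetic enzymes Aldh1a1 (-0.89 ± 0.05) and Aldh1a2 (-0.80 ± 0.10) were higher in accumbens. The receptors Rxrg (0.69 ± 0.07) and Rxrb (0.45 ± 0.04) were higher in striatum, while the receptor Rarb, named above, was higher in accumbens. Over the list 6 of 14 were higher in striatum and 5 in accumbens (median 0.04), so it had no common direction. Of 15 steroid and nuclear hormone receptors 8 were higher in striatum and 1 in accumbens, among them Pgr, the progesterone receptor (0.95 ± 0.06), the clock repressor Nr1d1 (0.69 ± 0.05) and Thrb, a thyroid hormone receptor (0.67 ± 0.05). Of 19 imprinted genes, whose 2 parental copies are used unequally, 10 were higher in accumbens and 3 in striatum. Cdkn1c, an inhibitor of the cell cycle (-0.85 ± 0.07), Grb10 (-0.78 ± 0.07) and Nnat, neuronatin (-0.72 ± 0.05), had the largest differences after Igf2.

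Cell adhesion and axon guidance genes pointed both ways, as did all genes tested, with 28% higher in striatum and 34.7% in accumbens. In the Eph family 4 of 11 were higher in striatum and 3 in accumbens, with Epha4, a marker of the matrix compartment, higher in striatum (0.52 ± 0.05) and Epha3 higher in accumbens (-1.06 ± 0.07). Among semaphorins, plexins, netrins and slits, 11 of 29 were higher in striatum and 8 in accumbens. Nrp2, a semaphorin receptor, was 2.31-fold higher in accumbens (-1.21 ± 0.05), and Ntn1, netrin, 1.62-fold (-0.69 ± 0.06). The netrin receptor Unc5a (0.81 ± 0.07), Sema5a (0.80 ± 0.05) and Slit3 (0.65 ± 0.05) were higher in striatum. Of 19 cadherins and protocadherins, 9 were higher in striatum and 5 in accumbens. Celsr2 (0.98 ± 0.07) and Cdh13 (0.49 ± 0.05) were among the first and Pcdh18 (-0.94 ± 0.05) among the second. Of 8 markers of striosomes and matrix, the 2 compartments of striatum, 1 was higher in striatum and 4 in accumbens.

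Markers of cells outside the striatum also differed. All 11 markers of meningeal fibroblasts and matrix were higher in accumbens (median -1.33), and 9 of the 11 did not overlap. Their mean log2 value over the list lay between 9.70 and 10.14 in accumbens and between 8.21 and 8.87 in striatum. Beside the matrix genes named above, Slc13a4 (-1.53 ± 0.10) and the growth factor Igf2 (-1.37 ± 0.12) were among them. Markers of hypothalamus and preoptic area were higher in accumbens in 6 of 7, with Oxt, oxytocin (-0.93 ± 0.16), Avp, vasopressin (-0.66 ± 0.14), Pmch (-0.66 ± 0.06) and Gal, galanin (-0.47 ± 0.08). All 7 overlapped between striatum and accumbens. The mean of this list had medians of 9.27 in amygdala, 8.48 in accumbens and 8.05 in striatum, with lower ones in hippocampus (7.80) and frontal cortex (7.61). Of 6 thalamus markers 4 were higher in accumbens, among them Tcf7l2 (-0.83 ± 0.04), and of 4 septum and basal forebrain markers 3. The mean of the thalamus list had medians of 10.21 in amygdala, 9.98 in accumbens, 9.90 in hippocampus, 9.83 in frontal cortex and 9.53 in striatum. Markers of cortical excitatory neurons differed the other way, with 12 of 15 higher in striatum and 1 in accumbens (median 0.48). Beside Slc17a7, Fezf2 and Nr4a2, they included Tbr1 (1.05 ± 0.09) and Neurod6 (0.96 ± 0.07), both transcription factors of cortical neurons. The mean of that list lay between 9.99 and 10.29 in striatum, between 9.27 and 9.57 in accumbens and between 9.90 and 10.20 in frontal cortex. The part of neighbouring tissue in the values of either region was not tested.

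**Figure D3:**
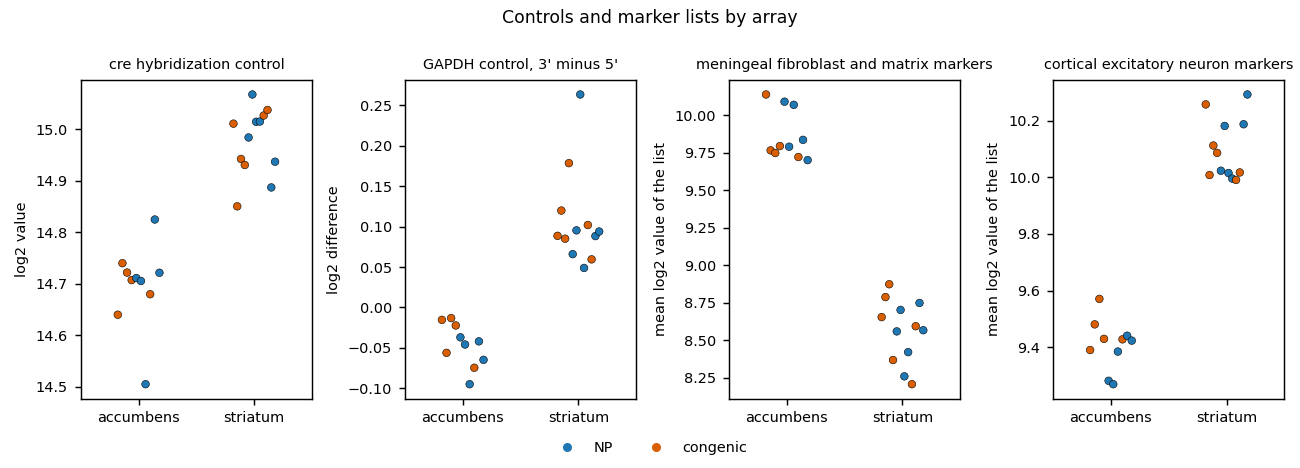
Values of the 22 arrays by region (points, coloured by line), with vertical axes of log2 value for the cre hybridization control, log2 difference for the GAPDH control and mean log2 value for the lists of meningeal and matrix markers and of cortical excitatory neuron markers. In each of the 4 panels the 10 accumbens arrays and the 12 striatum arrays do not overlap.

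Glial lists were divided by cell type. Astrocyte markers were higher in accumbens in 12 of 16 and in striatum in 1 (median -0.21). They included Agt, angiotensinogen (-1.25 ± 0.08), Id3 (-0.75 ± 0.04) and Vim, vimentin (-0.72 ± 0.07). Microglial markers were higher in accumbens in 9 of 12 and in striatum in 1. Their differences were at most 0.39 in size, such as those of the complement genes C1qa (-0.39 ± 0.05) and C1qb (-0.36 ± 0.04). Neither complement gene was called with the 2 left-out arrays (adjusted p = 0.223 and 0.311). The mean of the astrocyte list had medians of 12.49 in amygdala, 12.29 in hippocampus, 12.15 in accumbens, 12.10 in frontal cortex and 11.84 in striatum. That of the microglial list was also lowest in striatum (9.62) and highest in amygdala (10.035), with accumbens at 9.80. Markers of oligodendrocytes and myelin were higher in striatum in 8 of 16 and in accumbens in 1 (median 0.18), led by Mag, myelin-associated glycoprotein (0.68 ± 0.05), Sox10 (0.54 ± 0.05) and Olig1 (0.53 ± 0.04). Of 11 endothelial markers 3 were higher in accumbens and 2 in striatum, none by more than 1.27-fold. The globin gene Hbb was 2.14-fold higher in accumbens (-1.09 ± 0.05), with values of 13.64 to 14.85 there and 12.75 to 13.49 in striatum. The part of blood in other differences was not tested. Ribosomal protein genes were higher in accumbens in 22 of 26 and in striatum in none (median -0.21), and genes of oxidative phosphorylation in 27 of 38, with 1 higher in striatum (median -0.18). The differences were small, at most 1.37-fold for Rpl18 and 1.38-fold for Atp5po. With the 2 left-out arrays put back, 13 of the 26 ribosomal genes were called.

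The other 3 regions of the same rats place these differences, described here without a test. Of the 77 genes at least 2-fold higher in striatum, 50 had their highest median of the 5 regions there, 20 in frontal cortex, 7 in hippocampus and none in amygdala. Of the 66 higher in accumbens, 28 had it in accumbens, 33 in amygdala, 5 in hippocampus and none in frontal cortex. For 27 of these 66 the striatum had the lowest median of all 5 regions while accumbens was not the highest. Slc17a6 was not one of these 27, because its lowest median was that of frontal cortex. Its medians were 11.10 in amygdala, 10.22 in hippocampus, 9.80 in accumbens, 8.65 in striatum and 8.59 in frontal cortex. Its amygdala values, 10.34 to 11.51, lay above those of accumbens, 9.47 to 10.30. For Ppp1r1b the order was striatum (13.80), accumbens (12.52), amygdala (11.54), frontal cortex (10.58) and hippocampus (10.35), and the ranges of the last 2 overlapped.

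**Figure D4:**
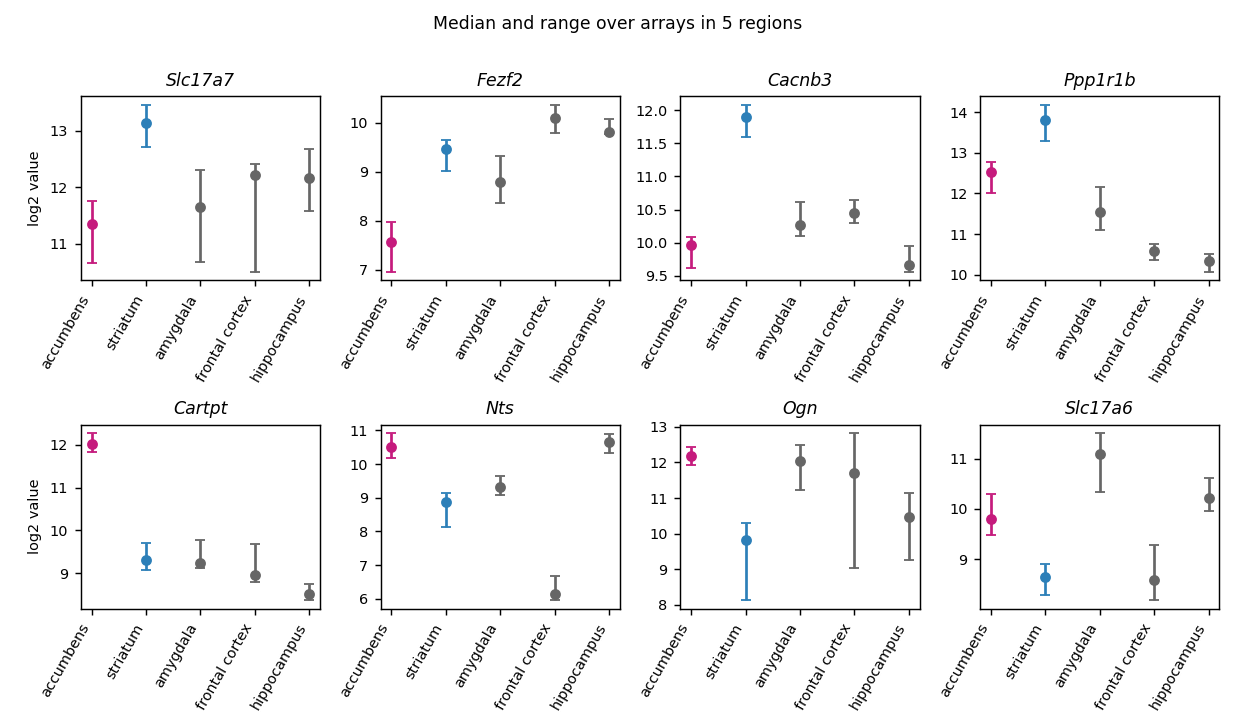
Median (point) and range (bar) of the log2 values (vertical axis) of 8 genes over the arrays of 5 regions (horizontal axis), without the arrays that stood apart. Slc17a7, Cacnb3 and Ppp1r1b have their highest median in striatum, Cartpt in accumbens, and Slc17a6 in amygdala.

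Most calls were shared by the lines. In NP rats alone 9217 probe sets were called (49.5%), 23.1% higher in striatum and 26.4% in accumbens. In congenic rats alone 7785 were called (41.8%), 21.3% higher in striatum and 20.5% in accumbens, or 3793 with the left-out array of congenic rat 9 put back. Of these, 6795 were called in the same direction in both lines, 73.7% of the NP calls and 87.3% of the congenic calls, and the lines hold different rats. Across the 18625 probe sets the differences of the lines correlated at r = 0.946, a description across probe sets that share their arrays. Over both lines 247 probe sets were called at 2-fold or more, 155 higher in striatum (0.832%) and 92 in accumbens (0.494%). They were chosen on the same rats, so their side in each line is a description. Cartpt differed by -2.67 in NP and by -2.65 in congenic rats, and Slc17a7 by 2.05 and 1.57.

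A test of the difference between the lines themselves, the interaction of region and line, called no probe set in limma. An unadjusted p under 0.05 was found for 660 (3.54%), and the smallest adjusted p was 0.560. No probe set was called under any alternative fitted, where the smallest adjusted p was 0.102, without rat 4. The 2 genes of smallest p, neither called, lie on chromosome 4. Whether they lie in the segment carried by NP.P rats, or whether that chromosome holds more such genes than others, was not tested. The mean of Smo was 7.98, near the signal limit of 7.74. Magi1, a scaffold protein of cell junctions, differed between the regions by -0.08 in NP and by -0.73 in congenic rats, and Smo, the transducer of hedgehog signals, by -0.28 and 0.11. The interaction was -0.65 ± 0.12 for Magi1 and 0.40 ± 0.07 for Smo, neither called (adjusted p = 0.560 each). Nfil3, Akr7a3 and Pde4a followed, with interactions of -0.38 ± 0.10, 0.37 ± 0.10 and -0.40 ± 0.10 and an adjusted p of 1.00 each.

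**Figure D5:**
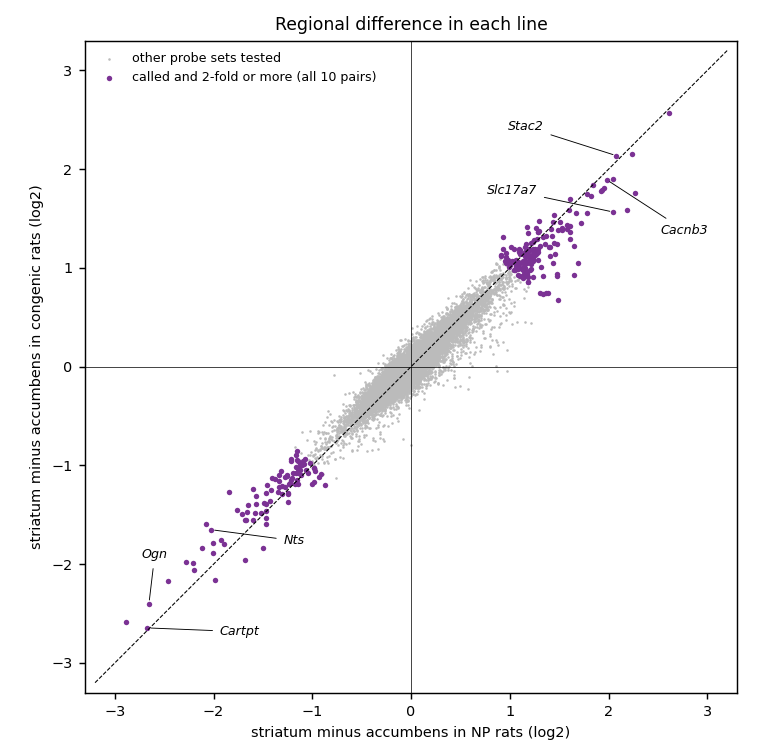
Striatum minus accumbens (log2) of 18625 probe sets in NP rats (horizontal axis) and in congenic rats (vertical axis), with the line of equality dashed. Purple points are the 247 probe sets called at 2-fold or more over all 10 pairs, a choice made on the rats of both lines, and each lies on the same side of 0 in both.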

How the data were processed

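RNA of 5 brain regions of 12 rats was measured on 1-colour Affymetrix arrays. The deposited values are log2 signals that the authors summarized per probe set, and their background correction and normalization are not given in the sources used here. Per the labels' protocols, total RNA was extracted with Trizol and each rat was labelled separately. Of 31099 probe sets, 57 array controls were left out. Of the other 31042, 20826 have 1 gene symbol in the platform's annotation, 436 have several and 9780 are unnamed there.

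The 12 striatum and 10 accumbens arrays were fitted with limma (version 3.58.1, R 4.3.3, data.table version 1.17.8), with the animal as a fixed block, empirical Bayes and 2-sided tests. The striatum arrays of rats 8 and 9 had no partner and set only their own block term, which left 9 residual degrees of freedom. Kept were 18625 probe sets whose mean of the 2 region means reached the 40th percentile (7.74), 14022 with 1 symbol. Per gene the probe set of highest mean was used. Of 2756 genes with several probe sets, 168 had called ones in both directions. Chromosomes, and promoters of 8644 of 10386 genes, came from RefSeq on GRCr8. Shares of motifs in sets of genes were not compared, since only 58 of the 77 genes higher in striatum by 2-fold had a promoter there, under the 80% needed, which makes that check void.

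Named genes were the 12 largest differences each way among called genes with 1 sign in all 10 pairs, up to 5 called genes of each of 45 gene lists, the 5 of smallest interaction p and 14 fixed names. A few others were named after their values were seen, as said beside them. The comparison, its members and the lists were chosen with earlier results of these data known.

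The labels give each array an animal number, shared by the regions of 1 rat, which pairs them. Over the 10 pairs, deviations of the 2 arrays from their group means had a mean correlation of 0.037 (from -0.17 to 0.13), against -0.0044 over 90 pairs of different rats. Arrays of the other regions were used for medians only, without those that stood apart (a median correlation under 0.98 within the region or a profile correlation under 0.5). Alternatives covered pairing, left-out arrays, normalization, filter, prior, threshold, samples sharing the spread and leaving out each rat. In simulated data for the comparison of the regions, with 200 of 18625 probe sets changed, 86.6% were recovered at 0.25 log2 units, 98.5% at 0.5 and 100% at 1, with 11 false calls. Figures were drawn with Python and matplotlib.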

Additional observations from a re-analysis of the deposited data

Results flagged for a closer look

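In 12 of the 204 named genes the paired difference of 1 rat stood apart from those of the other 9. The test flags about 1 in 20 groups by chance, and 12 of 204 is near that share, so the flags are listed as a description. Of these, 4 were values of rat 10, 3 of rat 4 and 2 of rat 7. For the collagen gene Col1a2 the difference of rat 7 was -3.08, with the nearest other at -2.00. For the guidance receptor Unc5a it was 1.41 in the same rat. In rat 4 the differences were -1.14 for Sox6, 0.908 for Mgll and -0.083 for Pmch, the precursor of melanin-concentrating hormone. In rat 10 they were -1.17 for Tshz1, -0.162 for Ntn1, 1.66 for Syt11 and -0.375 for Npy. The others were 0.0097 for the growth factor receptor Kdr in rat 12, -0.120 for Rpl14 in rat 1 and 1.10 for Chrm3 in rat 6. Whether any of them reflects more than chance was not tested.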

How the results depend on the processing

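The total of 11328 called of 18625 probe sets stayed within 1.5 times under the other settings run, except against a 1.2-fold difference, where 2566 were called. The ends were 8445 of 12417 tested (60th percentile filter) and 13996 of 31042 (no filter), so these counts rest on different numbers tested. Leaving out each rat gave 10826 to 11284. Centring on array medians turned the balance of directions in NP rats, to 4674 higher in striatum and 4429 in accumbens, from 4302 and 4915. Without the replicate block 11771 were called, in NP rats 9544 and in congenic rats 8797. With the animal as a random block 11838 were called. Besides Tac1 and Slc35d3, the block changed the calls of the regional difference of Nfil3 and Akr7a3, called without it (adjusted p = 0.0489 and 0.0382), and of no other named gene. Putting back the 2 accumbens arrays, whose profiles stood apart from the others, gave 9071 calls in all and 3793 in congenic rats. At an adjusted p under 0.01 congenic rats had 4964. With the 2 arrays 17 of 195 called named genes lost their call, and of these Tac1 alone turned its sign (0.32). The signs of Drd1, Npy and Pde4a, not called in either fit, turned as well (0.43, 0.06 and 0.01). Against a 1.2-fold difference 47 named genes lost it. The test of the line by region interaction gave 0 calls in every setting run. After quantile normalization Crym was called (-0.15, adjusted p = 0.0442), and in 1 fit of all 5 regions Pmch was not (adjusted p = 0.0896). The causes of these changes were not tested.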

Other observations

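Probe sets without a single gene symbol in the annotation used, unnamed or with several symbols, held some of the largest differences. Of 4603 tested, 2615 were called, 30 at 2-fold or more higher in striatum and 19 higher in accumbens. Over all 18625 probe sets 60.8% were called, 0.832% at 2-fold or more higher in striatum and 0.494% in accumbens. Each share was lower in this group, so it was not rich in large differences. Probe set 1390838_at lay between 10.25 and 10.88 in striatum and between 7.15 and 8.56 in accumbens (2.59 ± 0.13, limma, adjusted p = 1.77e-10), and its frontal cortex median was 11.31. Probe set 1376952_at was higher in striatum by 2.20 ± 0.08 (adjusted p = 6.28e-12). Probe set 1385031_at was higher in accumbens, with values of 8.62 to 9.71 there and 6.59 to 7.43 in striatum (-2.13 ± 0.09), and so was 1382205_at (-2.10 ± 0.09).

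Cytoskeletal genes of axons and dendrites did not move together. Of 16 tested, 4 were higher in striatum and 3 in accumbens. Ina, the neurofilament protein internexin, was 2.08-fold higher in striatum (1.05 ± 0.06), as were Map1a (0.64 ± 0.04) and the tau gene Mapt (0.31 ± 0.04) to a smaller extent. Nefm, the medium neurofilament, was higher in accumbens (-0.21 ± 0.05), as was Stmn2, stathmin 2 (-0.30 ± 0.05). Of 4 markers of choroid plexus and ependyma, 1 was called, Aqp1, a water channel, higher in accumbens (-0.14 ± 0.04). It was not called with the 2 left-out arrays (adjusted p = 0.308). Of 4 markers of midbrain dopamine neurons 2 were higher in accumbens, Aldh1a1 and Ddc.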
